A study of Mus musculus with 7 samples.

Results

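The expression of 9 genes around the transcription factor NRF2 and the supply of NADPH was examined in ileal scrapings of mice on a normal cystine or a low cystine diet. The genes were Nfe2l2, Keap1, Nqo1, Hmox1, G6pdx, Pgd, Tkt, Taldo1 and Me1. They were chosen by name as the rows of the deposited count table, 1 row each, out of 38293 genes, and all 9 passed the filter on low counts that left 14869 genes for testing. The study asked how dietary cystine restriction acts on the gut. The groups were 4 mice on the high fat, low calcium AIN93-G diet (normal cys) and 3 mice on the same diet in which the added L-cystine was replaced by alanine (low cys), and each mouse gave 1 library. The study kept 8 mice per diet, and how the sequenced mice were chosen is not stated. Mice were fasted for 4 h before sacrifice. All were male C57BL/6NRJ mice, 8 weeks old and housed singly, which took 40% of their energy as fat in both groups. They were acclimatized for 1 week on the control diet and then fed the diets for 2 weeks. The scrapings took the epithelium with its lamina propria and left the muscle behind, so a value is a mixture over cell types.

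NRF2, the product of Nfe2l2, is the main transcription factor of the oxidative stress response. KEAP1 binds it and presents it for degradation, and reactive cysteines of KEAP1 sense electrophiles and oxidants and let NRF2 accumulate, so that much of its control lies in the protein and not in its mRNA. NRF2 pairs with small MAF proteins on the antioxidant response element of genes for glutathione synthesis, detoxification and NADPH supply. The quinone reductase NQO1 and the heme-degrading enzyme HMOX1 are commonly used as readouts of this response. G6PDX and PGD are the NADPH-producing dehydrogenases of the oxidative pentose phosphate pathway, and cytosolic malic enzyme (ME1) makes NADPH from malate. Transketolase (TKT) and transaldolase (TALDO1) belong to the non-oxidative branch and produce no NADPH themselves. The intestine uses NADPH to keep glutathione and thioredoxin reduced and to make fatty acids and cholesterol.

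The promoters were searched for the core of the antioxidant response element, TGACNNNGC, on both strands, in RefSeq windows of GRCm38.p6 from 250 bases before to 50 bases after an annotated start. Windows were at hand for 8 of the 9 genes, and the core occurred in those of Nfe2l2, Pgd, G6pdx and Me1, that is in 4 of 8 genes. It occurred in 13.99% of all 27025 genes with a window and in 12.4% of the 32851 windows. In the windows of Keap1, Nqo1, Tkt and Taldo1 these letters were not found. Pgd and Me1 had 2 windows each, with the core in 1 of them. The stretches around the 4 matches are shown because they are the feature that these genes share outside the measured values. The capitals mark the core as it reads on the gene's own strand.
Nfe2l2, chr2:75704854-75704913, minus strand, core at -240 from the start: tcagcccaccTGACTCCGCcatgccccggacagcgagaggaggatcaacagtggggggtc
G6pdx, chrX:74428917-74428997, minus strand, core at -57 on the other strand: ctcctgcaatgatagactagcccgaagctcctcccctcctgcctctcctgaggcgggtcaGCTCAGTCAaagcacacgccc
Pgd, chr4:149166059-149166139, minus strand, core at 4 in the window of a start inside the gene: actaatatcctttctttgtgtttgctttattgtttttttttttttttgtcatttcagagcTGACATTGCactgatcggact
Me1, chr9:86695900-86695980, minus strand, core at -6: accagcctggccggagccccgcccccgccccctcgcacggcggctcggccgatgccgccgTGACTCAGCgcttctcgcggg
In Me1 the match overlaps the letters of an AP-1 site (TGACTCA). Among the other NRF2 target genes described later, 9 of 29 with a window held the core (31.0%). A match is a run of letters and does not show that NRF2 binds there, and enhancers outside the windows were not searched.

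The libraries held between 19712355 and 22412703 counts on the normal cys diet and between 14888760 and 21942518 on the low cys diet, and no library was a duplicate of another. Across the table edgeR's quasi-likelihood test called 0 of 14869 genes (0%) at an adjusted p under 0.05, and DESeq2 called 16. At an unadjusted p under 0.05 edgeR found 817 genes, and 2.83% of the genes tested were lower and 2.66% higher on the low cys diet. Markers of the expected tissue were present in every library, with all 7 distal ileum and all 10 villus enterocyte markers passing the filter. In 8 of the 14 cell type marker lists every gene tested had its estimate in the same direction. All 10 villus enterocyte markers had lower estimates on the low cys diet, and their summed level ran from 40407 to 61902 CPM (counts scaled to the normalized library size) on the normal and from 21578 to 40491 on the low cys diet. Here and below, the sums run over all listed markers of a type, including any that did not pass the filter. All 8 proliferating crypt markers had higher estimates, with sums of 129 to 347 CPM on the normal and 219 to 389 on the low cys diet. All 9 macrophage markers tested also had higher estimates, with sums of 25.7 to 96.6 and 94.99 to 107.6 CPM. All 6 stroma markers tested had higher estimates as well, with sums of 4.73 to 10.5 and 15.3 to 21.9 CPM and 3 genes with an unadjusted p under 0.05 in edgeR. The largest median log2 fold change, 1.56, was that of the smooth muscle markers, with all 6 tested higher, 2 of them at an unadjusted p under 0.05, and sums of 2.39 to 12.1 and 5.75 to 38.7 CPM. These markers were thus present at a low level, although the scrapings left the muscle behind. The 7 Paneth cell markers were all higher in their estimates (median 0.78), the 6 tuft cell markers all lower (median -0.40, 2 at an unadjusted p under 0.05) and the 7 T cell markers all lower (median -0.25). None of the marker lists held a gene that was at 0 in every library. In bulk tissue, fewer cells of a type and less RNA per cell cannot be told apart, and the part of these markers in the values of the 9 genes was not tested except by the relations given further on.

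Levels of different genes were compared as CPM per kb of exon. The length was that of all annotated exons of a gene together, 6533 bases for Tkt and 6447 for Pgd against 1998 for Taldo1. It can exceed the length of the transcripts present, so the order and the ratios between genes depend on it. Taldo1 was the most abundant, with 251 ± 40.5 CPM per kb (SD, n = 4) in normal cys and 210.3 ± 9.86 (SD, n = 3) in low cys mice. Tkt followed with a mean over the 7 libraries of 66.9, then Nfe2l2 with 39.5, Pgd with 39.0, G6pdx with 19.6, Keap1 (9.82 to 13.5 over the libraries), Nqo1 with a mean of 10.1, Me1 with 7.66 and Hmox1 with 0.329. The neighbours Nfe2l2 and Pgd, Keap1 and Nqo1, and Nqo1 and Me1 overlapped in this order. The other neighbours did not overlap between libraries, although G6pdx came close to Keap1, with its lowest library at 13.8 and the highest Keap1 library at 13.5. By this measure and in CPM alike, the transcripts of the non-oxidative branch were the most abundant of the 9. In CPM, however, the libraries of Tkt (373 to 494) and Taldo1 (401 to 599) overlapped. The mRNA of NRF2 was more abundant than that of its inhibitor by both measures in each library. Hmox1 was close to the counting limit, with 9 to 19 counts per library.

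**Figure D1:**
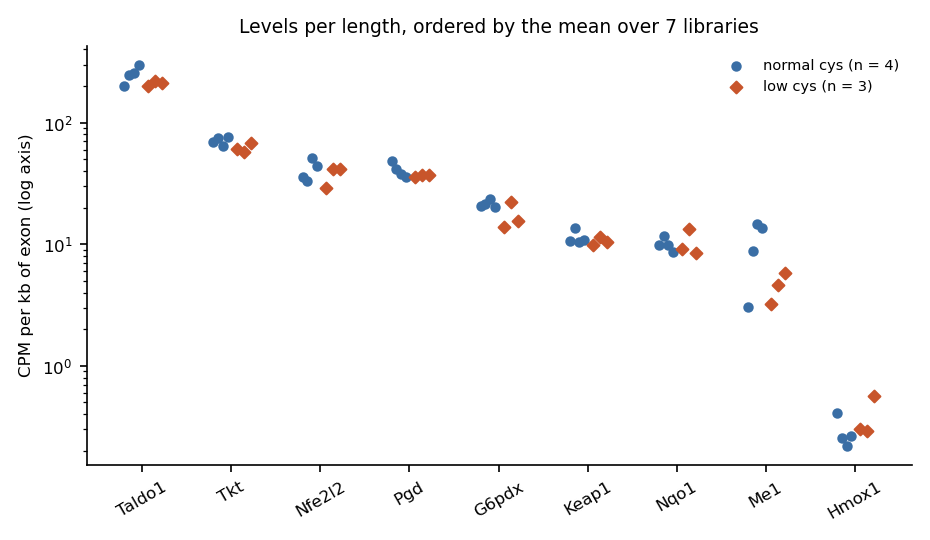
Levels of the 9 genes in CPM per kb of exon (log axis), each point 1 library, blue circles normal cys (n = 4) and orange diamonds low cys (n = 3). The genes run from Taldo1 with a mean of 233 over the 7 libraries to Hmox1 with 0.329, and the Me1 libraries are spread most, 4.76-fold between the lowest and the highest.

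For the 2 regulators, the difference between the diets was within the spread between mice. Nfe2l2 (ENSMUSG00000015839, chromosome 2, 75675513 to 75704641, minus strand, GRCm38) had 136, 125, 194 and 168 CPM in normal cys 1 to 4, and 109.7, 159 and 159 in low cys 1 to 3. The low cys libraries lay within or below the range of the normal cys libraries, with low cys 1 the lowest of the 7. The log2 fold change, low over normal cys, was -0.13 (standard error, SE, 0.20; 95% interval -0.57 to 0.31, edgeR adjusted p = 0.865). Keap1 (ENSMUSG00000003308, chromosome 9, 21229730 to 21239332, minus strand) had 47.4, 60.5, 46.2 and 48.3 CPM on the normal and 43.9, 51.2 and 46.8 on the low cys diet. Normal cys 2 stood above the other 6 libraries, which lay close together. In edgeR the log2 fold change was -0.10 (SE 0.13, 95% interval -0.40 to 0.20, edgeR adjusted p = 0.857). Of the exon bases of Keap1, 11.4% overlap an antisense gene, and whether the counting used strand is not stated. The ratio of Nfe2l2 to Keap1, per kb of exon, was 3.72 ± 1.06 (SD, n = 4) in normal cys and 3.53 ± 0.538 (SD, n = 3) in low cys mice (exact permutation test, two-sided, p = 0.943). It varied more between mice on the normal diet, from 2.44 to 4.94, than between the diet means.

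In the readout genes Nqo1 and Hmox1 no difference was detectable. Nqo1 (ENSMUSG00000003849, chromosome 8, 107388225 to 107403206, minus strand) had 15.4, 18.1, 15.2 and 13.4 CPM in normal cys 1 to 4 and 14.2, 20.6 and 13.1 in low cys 1 to 3. Both the highest and the lowest of the 7 libraries were on the low cys diet. Its log2 fold change was 0.04 (SE 0.19, 95% interval -0.39 to 0.48, edgeR adjusted p = 0.960), so a change of more than 1.39-fold upwards or to below 0.762 of the normal level lay outside the interval. Hmox1 (ENSMUSG00000005413, chromosome 8, 75093591 to 75100596, plus strand) had 17, 12, 9 and 12 counts on the normal and 16, 10 and 19 on the low cys diet. In CPM these were 0.888, 0.545, 0.473 and 0.573 against 0.653, 0.625 and 1.22, and the higher mean of the low cys group came from low cys 3. This gave a log2 fold change of 0.41 with a 95% interval of -0.55 to 1.37 (edgeR adjusted p = 0.825), and without low cys 3 it was 0.045. The SE of Hmox1, 0.42, was the largest of the 9 after that of Me1 (0.48). Relative to Nfe2l2, Nqo1 was at 0.254 ± 0.0769 (SD, n = 4) in normal cys and 0.279 ± 0.0662 (SD, n = 3) in low cys mice (exact permutation test, two-sided, p = 0.686).

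**Figure D2:**
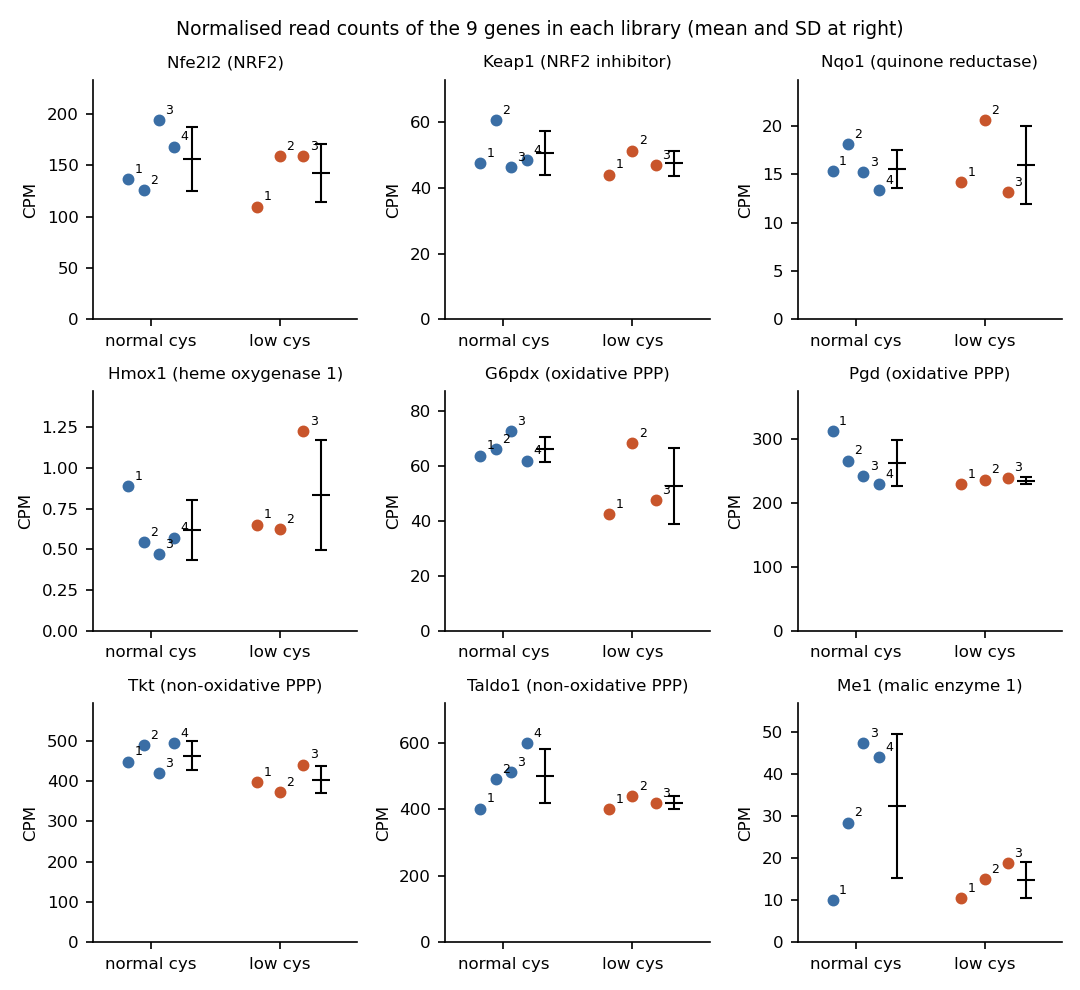
Normalised read counts (CPM, axes from 0) of the 9 genes in each library, numbered by replicate, normal cys in blue (n = 4) and low cys in orange (n = 3), with the mean and SD of each diet in black at the right. In each panel the libraries of the diets overlap, and Me1 in normal cys 1, at 9.98 CPM, lies with the low cys libraries.

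The 2 dehydrogenases of the oxidative pentose phosphate pathway had somewhat lower means on the low cys diet, which did not pass the test. G6pdx (ENSMUSG00000031400, chromosome X, 74409483 to 74429194, minus strand), which encodes the first and rate-limiting enzyme of the pathway, had 63.7, 66.0, 72.6 and 62.0 CPM in normal cys 1 to 4. The low cys libraries had 42.4, 68.4 and 47.5 CPM. Low cys 1 and 3 lay below all normal cys libraries and low cys 2 lay among them. For G6pdx the log2 fold change was -0.33 (SE 0.17, 95% interval -0.71 to 0.06), with an unadjusted p of 0.0886 and an adjusted p of 0.794 in edgeR. This depended on low cys 2: without it the log2 fold change was -0.53 and the unadjusted p was 0.00507 (adjusted p 0.714, edgeR), and without low cys 1 the log2 fold change was -0.18 (unadjusted p = 0.328). Of the exon bases of G6pdx 13.6% overlap Ikbkg on the other strand, and 6.46% of its 50-base stretches also occur in the retrogene G6pd2. Pgd (ENSMUSG00000028961, chromosome 4, 149149991 to 149166771, minus strand), which encodes the next NADPH-producing enzyme, had 313, 267, 242 and 230.1 CPM on the normal and 229, 237 and 240.3 on the low cys diet. Its low cys libraries were close together, with a coefficient of variation of 2.37%, at the lower end of the normal cys range. The log2 fold change was -0.16 (SE 0.14, 95% interval -0.47 to 0.16, edgeR adjusted p = 0.806), and without normal cys 1 it was -0.064. The ratio of Pgd to G6pdx, per kb of exon, was 1.91 ± 0.319 (SD, n = 4) in normal cys and 2.22 ± 0.495 (SD, n = 3) in low cys mice (exact permutation test, two-sided, p = 0.343).

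Tkt and Taldo1 of the non-oxidative branch were measured with the smallest relative counting error of the 9. Tkt (ENSMUSG00000021957, chromosome 14, 30548359 to 30574722, plus strand) had 448, 489, 419 and 494 CPM in normal cys 1 to 4 and 396, 373 and 440.4 in low cys 1 to 3. Low cys 3 lay above the lowest normal cys library and the other 2 low cys libraries lay below it. Between the diets its log2 fold change was -0.20 (SE 0.13, 95% interval -0.50 to 0.10, edgeR adjusted p = 0.794), and without low cys 2 it was -0.12. Taldo1 (ENSMUSG00000025503, chromosome 7, 141392199 to 141402968, plus strand) had 402, 491, 511 and 599 CPM on the normal and 401, 440.4 and 419 on the low cys diet. All 3 low cys libraries and normal cys 1 lay below the other 3 normal cys libraries. For Taldo1 the log2 fold change was -0.25 (SE 0.16, 95% interval -0.61 to 0.10, edgeR adjusted p = 0.794), and the value ranged from -0.34 without normal cys 1 (unadjusted p = 0.0467) to -0.16 without normal cys 4 (unadjusted p = 0.313). Some 6.67% of the 50-base stretches of Taldo1 also occur in the pseudogene Gm17823. The ratio of Tkt to Taldo1 per kb of exon was 0.287 ± 0.0436 (SD, n = 4) and 0.294 ± 0.0319 (SD, n = 3) on the normal and low cys diets (exact permutation test, two-sided, p = 0.800).

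Me1 (ENSMUSG00000032418, chromosome 9, 86581363 to 86695914, minus strand) had the largest difference between the diets of the 9 genes and also the largest spread between mice. It had 9.98, 28.5, 47.5 and 44.1 CPM in normal cys 1 to 4, from 191, 628, 903 and 924 counts, and 10.5, 15.1 and 18.9 CPM in low cys 1 to 3, from 258, 241 and 294 counts. Normal cys 2, 3 and 4 lay above every low cys library, and normal cys 1 was the lowest library of all. The means were 32.5 ± 17.2 CPM (SD, n = 4) and 14.8 ± 4.21 (SD, n = 3), and the level on the low cys diet was 0.455 of that on the normal diet in the edgeR fit (95% interval 0.211 to 0.979). On the log2 scale the difference was -1.14 (SE 0.48), with an unadjusted p of 0.0452 and an adjusted p of 0.794 in edgeR. The exact permutation test on log2 CPM gave p = 0.229 (two-sided), where the smallest p that 4 and 3 libraries allow is 0.0286. The unadjusted p was 0.0102 in DESeq2 (adjusted p 0.694) and 0.101 in limma-voom. Without normal cys 1 the log2 fold change was -1.44 and the unadjusted edgeR p 0.000504 (adjusted p 0.324), without low cys 3 the p was 0.0484, and without any other single library it lay between 0.0718 and 0.136. Of the 50-base stretches of Me1, 22.9% also occur in the transcripts of Gm7049 or Gm7329, and whether reads were shared was not tested. Relative to G6pdx, per kb of exon, Me1 was at 0.462 ± 0.238 (SD, n = 4) in normal cys and 0.273 ± 0.0908 (SD, n = 3) in low cys mice (exact permutation test, two-sided, p = 0.343). The p-values of the 5 ratios were all at least 0.857 after adjustment over the 5 (Benjamini-Hochberg).

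Over the 9 genes, 7 had a lower estimate on the low cys diet, against 48.8% of all genes tested, and the median log2 fold change was -0.16, against 0.01 over all genes. None of the 9 passed an adjusted p of 0.05 in edgeR, DESeq2 or limma-voom. At an unadjusted p under 0.05, 1 of the 9 was lower (Me1) and 0 were higher, in edgeR and in DESeq2 alike, against 2.83% lower and 2.66% higher of all genes in edgeR. In 0 of the 9 genes were the libraries of the diets without overlap, against 6.83% of all genes tested. The number of lower estimates depended on the scaling. With library totals only, in place of TMM factors, the median of all genes was 0.15 and the share of genes with lower estimates 28.2%, and 5 of the 9 genes had lower estimates, since Nfe2l2 and Keap1 moved to 0.02 and 0.04. G6pdx, Taldo1 and Me1 kept lower estimates of -0.19, -0.11 and -0.98, and those of Pgd and Tkt came close to 0, at -0.02 and -0.06.

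**Figure D3:**
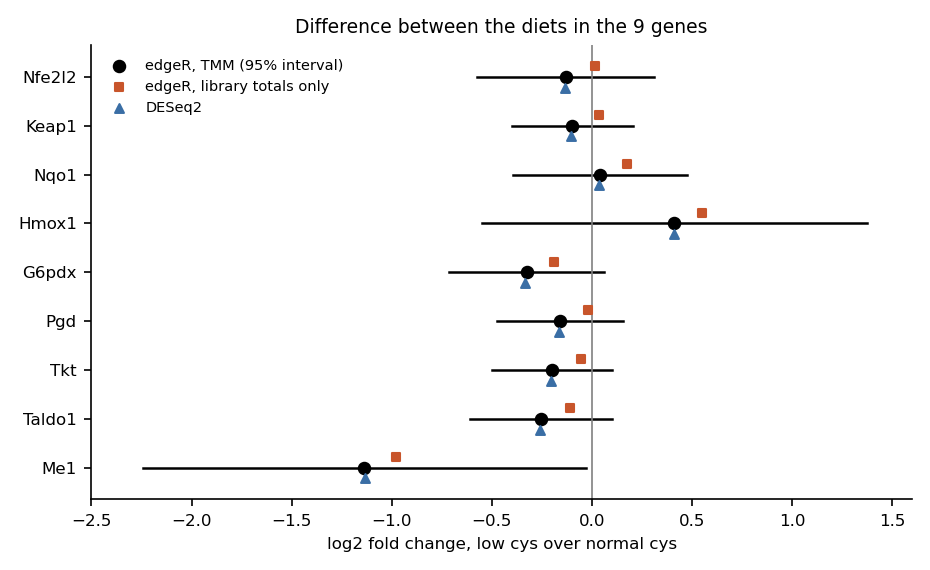
Log2 fold changes of the 9 genes, low cys over normal cys, with the edgeR estimate and its 95% interval (black), the edgeR estimate with library totals only (orange squares) and the DESeq2 estimate (blue triangles). The interval lies wholly below 0 for Me1 only, from -2.24 to -0.03.

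Between the mice, Me1 and Taldo1 varied together. Over the 7 libraries the Pearson r of their log2 CPM was 0.912 (exact permutation p = 0.00317, adjusted over the 36 pairs p = 0.114) and Spearman's rho was 0.893 (exact permutation p = 0.0123, adjusted p = 0.443). Without the 2 libraries farthest from the median of Taldo1 r was 0.901, and it was 0.871 in the deviations from the diet means. Of the 36 pairs among the 9 genes 0 had an adjusted p under 0.05, and 21 had an r above 0. Nfe2l2 and Nqo1 are not among the pairs with an unadjusted p under 0.05, which the pair of Taldo1 and Me1 alone reached.

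These genes were also compared with the mean log2 CPM of 3 marker lists, which made 27 relations, none with an adjusted p under 0.05. Taldo1 was lowest where proliferating crypt markers were highest, with r = -0.936 (exact permutation p = 0.00337, adjusted p = 0.0911) and rho = -0.964 (exact permutation p = 0.00278, adjusted p = 0.0750). This r was -0.724 without the 2 farthest libraries and -0.916 in the deviations from the diet means. Me1 had an r of -0.852 with the same list (exact permutation p = 0.0181, adjusted p = 0.122) and a rho of -0.821 (exact permutation p = 0.0341, adjusted p = 0.307), and r was -0.508 without the 2 farthest libraries. Other lists gave relations of like size. Taldo1 had an r of -0.842 with macrophage markers (exact permutation p = 0.0175, adjusted p = 0.122) and a rho of -0.643 (exact permutation p = 0.139, adjusted p = 0.417), and r was -0.569 without the 2 farthest libraries. Me1 had an r of 0.757 with villus enterocyte markers (exact permutation p = 0.0248, adjusted p = 0.134) and a rho of 0.714 (exact permutation p = 0.0881, adjusted p = 0.370), and r was 0.690 without the 2 farthest libraries. Normal cys 1, in which Me1 and Taldo1 were at the level of the low cys libraries, had a crypt marker level of 5.08 on the log2 scale, against 3.36 to 4.63 in normal cys 2 to 4 and 4.37 to 5.22 on the low cys diet. Its villus enterocyte marker level was 11.09, against 11.05 to 11.83 in normal cys 2 to 4 and 9.88 to 11.19 on the low cys diet. Nfe2l2 had an r of 0.878 with villus enterocyte markers (exact permutation p = 0.00774, adjusted p = 0.104) and a rho of 0.893 (exact permutation p = 0.0123, adjusted p = 0.166), but an r of 0.505 without the 2 farthest libraries, of which low cys 1 had the lowest villus marker level, 9.88. With so few libraries these relations are descriptions, and all values come from the same libraries and normalization.

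**Figure D4:**
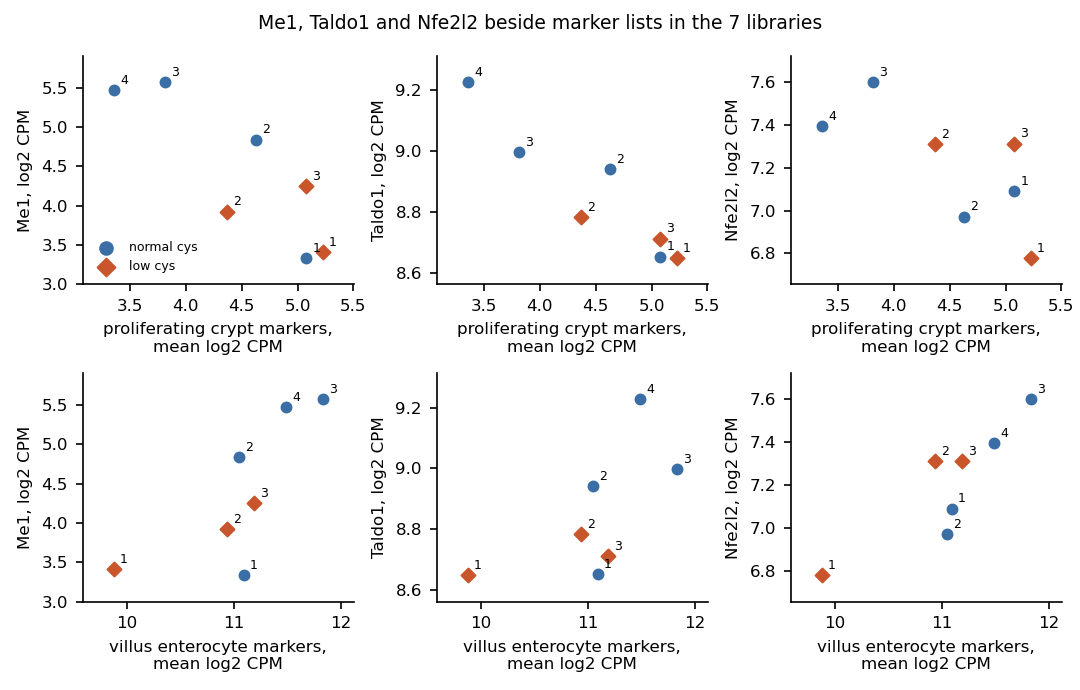
Log2 CPM of Me1, Taldo1 and Nfe2l2 against the mean log2 CPM of proliferating crypt markers (upper row) and villus enterocyte markers (lower row), each point 1 library numbered by replicate, blue circles normal cys and orange diamonds low cys. Me1 and Taldo1 fall from left to right in the upper row (r of -0.852 and -0.936 over 7 libraries). In their panels of that row, normal cys 1 lies beside low cys 1.

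The list of NRF2 partners and regulators also counted relatives of NRF2. More of its estimates were lower than higher, with a median close to that of all genes. Of 16 listed, 15 were tested and 10 had lower estimates (66.7%, against 48.8% of all genes tested). In edgeR or DESeq2 0 had an unadjusted p under 0.05, against 2.83% lower and 2.66% higher of all genes in edgeR. Without normal cys 1 there was 1 such gene, higher, and without normal cys 2 there were 2, both lower. The median log2 fold change of the list was -0.05, against 0.01 over all genes. Bach1, which encodes a heme-regulated repressor that competes with NRF2 for its sites, had 195 ± 21.9 CPM (SD, n = 4) in normal cys and 163 ± 4.28 (SD, n = 3) in low cys mice (log2 fold change -0.25, adjusted p = 0.794, edgeR). Sqstm1, which encodes the autophagy adaptor p62 that sequesters KEAP1, was the most abundant of the list and had 222 ± 91.4 CPM (SD, n = 4) and 156 ± 26.6 (SD, n = 3), the high SD coming from normal cys 4 with 356 CPM. Palb2, a partner of BRCA2 that can bind KEAP1, had 1.15 ± 0.536 CPM (SD, n = 4) and 2.04 ± 0.691 (SD, n = 3). With library totals only, 5 of the 15 had lower estimates and the median was 0.09, against 28.2% lower and a median of 0.15 over all genes.

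Among other target genes of NRF2, more estimates were lower than higher on the low cys diet. Of 35 listed, 33 were tested, 24 had lower estimates and 9 higher ones, with a median log2 fold change of -0.27 against 0.01 over all genes, and 0 passed an adjusted p of 0.05. With library totals only, 22 were lower and the median was -0.13, where 28.2% of all genes were lower and their median was 0.15. With TMM factors the median of the list was -0.18 without normal cys 4 or without low cys 1. At an unadjusted p under 0.05, 2 of the 33 were lower and 0 higher in edgeR and in DESeq2, against 2.83% and 2.66% of all genes in edgeR. In the same 2 genes the libraries of the diets did not overlap, against 6.83% of all genes, so these counts are near the background. Osgin1, which encodes an oxidative stress-induced growth inhibitor, had 78.0, 66.7, 85.8 and 90.0 CPM in normal cys 1 to 4 and 31.8, 63.9 and 62.2 in low cys 1 to 3. All low cys libraries lay below all normal cys libraries (log2 fold change -0.61, SE 0.24, unadjusted p = 0.0304, adjusted p = 0.794, edgeR). Srxn1, which encodes the sulfiredoxin that repairs overoxidized peroxiredoxins, had 498, 525, 561 and 536 CPM on the normal and 329.8, 466 and 429 on the low cys diet. These groups did not overlap either (log2 fold change -0.38, SE 0.15, unadjusted p = 0.0355, adjusted p = 0.794, edgeR). The count depended on single libraries. Without normal cys 1 it was 11, with 10 lower and 1 higher, and without low cys 2 it was 4, with 2 in each direction. It was 1 without normal cys 2 or low cys 3, and 0 without normal cys 3, normal cys 4 or low cys 1. Villus enterocyte markers had a median log2 fold change of -0.62, and their part in the lower estimates was not tested.

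**Figure D5:**
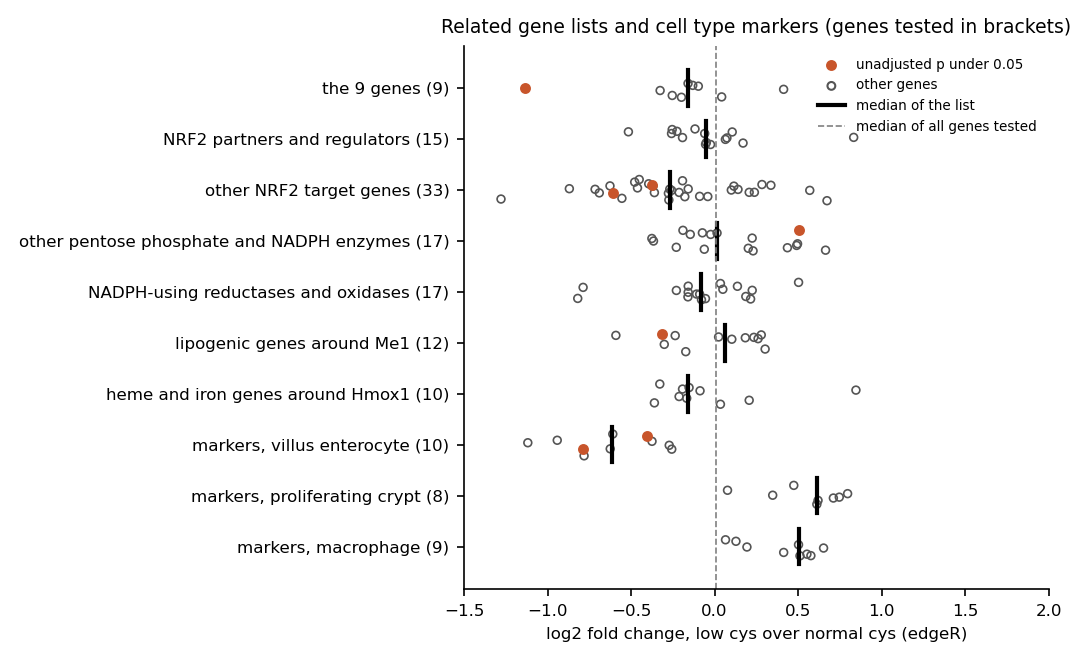
Log2 fold changes, low cys over normal cys (edgeR), of the genes of each list, with the number of genes tested in brackets, the median of each list as a black bar, genes with an unadjusted p under 0.05 in filled orange and the median of all genes as a dashed line. The other NRF2 target genes have a median of -0.27, the villus enterocyte markers -0.62, and the proliferating crypt markers 0.62.

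The remaining enzymes of the pentose phosphate pathway and of NADPH supply were evenly split. Of 21 listed, 17 were tested, 9 had higher and 8 lower estimates, with a median log2 fold change of 0.01. At an unadjusted p under 0.05, 1 gene was higher and 0 lower, against 2.66% higher and 2.83% lower of all genes in edgeR. This gene was Rpia, which encodes ribose 5-phosphate isomerase, the enzyme that turns ribulose 5-phosphate into the ribose 5-phosphate of nucleotides. It had 29.4, 24.3, 22.6 and 18.2 CPM in normal cys 1 to 4 and 36.3, 29.6 and 34.5 in low cys 1 to 3, and all low cys libraries lay above all normal cys libraries. Rpia was 1 of 2 genes of the list whose libraries did not overlap between the diets, against 6.83% of all genes tested. The log2 fold change of Rpia was 0.50 (SE 0.17, unadjusted p = 0.0153, adjusted p = 0.794, edgeR). The count of genes with an unadjusted p under 0.05 was 2 without normal cys 2, normal cys 4 or low cys 2, 4 without normal cys 1 and 0 without low cys 1. With library totals only, 5 of the 17 had lower estimates, against 28.2% of all genes, and 2 were higher at an unadjusted p under 0.05.

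The list of NADPH-using reductases and oxidases also counts Nqo2, a paralog of Nqo1 that uses other electron donors than NADPH. Of 18 listed, 17 were tested, with 7 higher and 10 lower estimates (48.8% of all genes tested were lower) and a median of -0.08. In edgeR 0 had an unadjusted p under 0.05, against 2.83% lower and 2.66% higher of all genes. In DESeq2 there was 1, lower, where 538 of all 14869 genes were lower and 402 higher. In edgeR there was 1 without normal cys 1, where 832 of 14786 genes were lower and 931 higher. There was also 1 without normal cys 4, where 328 of 14751 were lower and 505 higher. With library totals only, 6 of the 17 had lower estimates and the median was 0.06, against 28.2% lower and a median of 0.15 over all genes. The smallest p was that of Por, which encodes the electron donor of the microsomal cytochromes P450, with 62.8, 111, 179.7 and 147 CPM on the normal and 45.7, 88.5 and 83.4 on the low cys diet (log2 fold change -0.79, adjusted p = 0.794, edgeR). As for Me1, normal cys 1 lay with the low cys libraries. Nqo2 had 31.1 ± 0.632 CPM (SD, n = 4) and 35.5 ± 1.08 (SD, n = 3), with all low cys libraries above all normal cys libraries and a log2 difference of 0.19 (SE 0.10, edgeR adjusted p = 0.794). It was the 1 gene of the list without overlap, against 6.83% of all genes tested. Akr1a1, an aldehyde reductase and the most abundant gene of the list, had 616 ± 46.0 CPM (SD, n = 4) and 552 ± 44.3 (SD, n = 3).

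The genes of fatty acid synthesis and its control, with which Me1 is often regulated, had estimates on both sides of 0. Of 13 listed, 12 were tested, 7 had higher and 5 lower estimates, and the median log2 fold change was 0.06. With library totals only the median was 0.20, against 0.15 over all genes. In that setting 2 genes were higher and 0 lower at an unadjusted p under 0.05, so that Pklr was no longer among them. The median also moved between -0.05 without normal cys 1 and 0.18 without low cys 3. With TMM factors 1 gene was lower and 0 higher at an unadjusted p under 0.05, against 2.83% lower and 2.66% higher of all genes in edgeR. This gene was Pklr, which encodes the pyruvate kinase of liver and intestine. It had 381, 316, 333 and 303 CPM in normal cys 1 to 4 and 254, 283 and 267 in low cys 1 to 3, without overlap (log2 fold change -0.31, SE 0.13, unadjusted p = 0.0417, adjusted p = 0.794, edgeR). Of all genes tested, 6.83% were without overlap. Without normal cys 1 there were 3 genes with an unadjusted p under 0.05, and without normal cys 4 there were 2. Without normal cys 2 there was 1, which was higher, and without normal cys 3 or any 1 of the low cys libraries there were 0.

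Among the heme and iron genes around Hmox1, 10 of 12 were tested, with 3 higher and 7 lower estimates and a median of -0.16. Of all genes tested, 48.8% had lower estimates. In edgeR or DESeq2 0 genes of the list had an unadjusted p under 0.05, against 2.83% lower and 2.66% higher of all genes in edgeR. The median of the list was -0.017 with library totals only, with 6 of the 10 lower, against 0.15 and 28.2% lower over all genes. With TMM factors it was -0.044 without low cys 1. Without normal cys 1 there were 2 genes with an unadjusted p under 0.05, 1 in each direction. In that setting 832 of all 14786 genes tested were lower and 931 higher at this threshold. Ftl1 and Fth1, the subunits of the iron store ferritin and also targets of NRF2, had log2 fold changes of -0.36 and -0.21. Ftl1 had 794 ± 157 CPM (SD, n = 4) in normal cys and 619 ± 100.3 (SD, n = 3) in low cys mice. Slc46a1, which encodes a proton-coupled folate transporter that can carry heme, had 12.1 ± 1.81 CPM (SD, n = 4) and 9.64 ± 1.59 (SD, n = 3), with an adjusted p of 0.794 in edgeR.

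Among the 8624 other genes with a mean of at least 10 CPM, those whose log2 CPM followed Nqo1 most closely over the 7 libraries were Gm12989 (Pearson r 0.981), Slc4a4 (0.959) and Med16 (0.950). Those closest to G6pdx were Abhd12 (0.985), Glod5 (0.980) and Ube2l6 (0.973). They are the highest of many values over few libraries.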

How the data were processed

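Poly(A) RNA of ileal scrapings was sequenced from 4 normal cys and 3 low cys mice, assigned by their labels. The authors trimmed the paired-end 50-base reads with TrimGalore (version 0.6.5) and removed ribosomal reads with SortMeRNA. They aligned to GRCm38 with STAR and deposited raw counts per gene from featureCounts (Ensembl release 70). The strand setting and the handling of multi-mapping reads are not given in the sources used here. Here, genes were kept by filterByExpr (minimum count 10, total 15), normalized by TMM and tested with edgeR's robust quasi-likelihood test (version 4.0.16, R 4.3.3) without covariates, with Benjamini-Hochberg adjustment over all 14869 genes. The biological coefficient of variation was 25.5%. DESeq2 (1.42.0) and limma-voom (3.58.1) were alternatives, with other scalings, other filters, a non-robust fit and leaving out each library. Log2 CPM used a prior count of 2. Permutation tests covered the 35 placements of 3 of 7 libraries, or the 5040 orderings for relations. The fit was tested on simulated data. Each test took the single mouse as its unit, and no batch is given. The genes named are the 9 members, in each related list those with an unadjusted p under 0.05 (up to 5) or otherwise the 2 with the smallest p and the most abundant one, and the 3 genes closest to Nqo1 and to G6pdx. The members and lists were chosen with earlier results of these data known. GENCODE M21 gave the transcripts, the exon coordinates deposited with the counts gave the exon overlaps, and RefSeq gave the promoters.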

Additional observations from a re-analysis of the deposited data

Results flagged for a closer look

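Keap1 in normal cys 2 stood apart from the other normal cys libraries. Its gap to the nearest of them, divided by the range of the 4 libraries on the log2 scale, was 0.840, above the 95% critical value of Dixon's ratio. It was 1 of 9 genes examined in this way, where chance gives about 0.45. Without this library the log2 fold change of Keap1 was 0.017 in place of -0.10.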

How the results depend on the processing

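The count of 0 genes among the 9 with an adjusted p under 0.05 was the same under every alternative run. The count at an unadjusted p under 0.05 (1, Me1) was 0 with library totals only, without the filter and in limma-voom, and ranged from 0 to 2 when each library was left out. The sign of Nfe2l2 turned with library totals only (0.017) and without low cys 1 (0.038), and its log2 fold change ranged from -0.22 to 0.038 over the libraries left out. That of Keap1 turned with library totals only (0.037) and without normal cys 2 (0.017), with a range of -0.14 to 0.017. That of Nqo1 turned without normal cys 4 (-0.023) and without low cys 2 (-0.16), with a range of -0.16 to 0.16. The cause was not tested. The estimates of the other 6 genes kept their direction under all alternatives run, with Me1 between -1.44 and -0.89 over the libraries left out. A minimum of 10 counts in every library left Hmox1 out. No paired analysis was possible because the labels give no replicate number shared between the diets. With 9 to 19 counts per library, depth limits Hmox1 above all.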
